A study of Equus caballus with 4 samples.

Results

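The enzymes that break leucine down to HMG-CoA were followed in differentiating equine satellite cells (ESC), the stem cells of skeletal muscle that divide, differentiate and fuse into myofibers. The genes were *BCAT1*, *BCAT2*, *BCKDHA*, *BCKDHB*, *DBT*, *BCKDK*, *IVD*, *MCCC1* and *MCCC2*. A probe belonged to them if the scanner files gave one of these symbols as its gene name and did not mark it as a control. This gave 12 of the 43603 different probes on the array, and each of the 9 genes, of the 24998 different names that probes carry, had at least 1 of them. The ratio of a probe did not enter this choice.

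Cells of the HMB-treated group spent 24 h in 50 µM HMB (β-hydroxy-β-methylbutyrate, which the body makes from leucine), the last 1 h of it together with 3 mM H2O2. Control cells met the same H2O2 but no HMB, so no group was free of peroxide. Cells were at day 3 of differentiation and came from the m. semitendinosus of young stallions. The labels number 4 biological replicates, but the methods select a culture by its viability and fusion index, and the labels call the control replicate 1 on every array. The 4 arrays therefore need not stand for 4 horses, and the p-values measure the spread between these arrays.

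Leucine first gives its amino group away to become ketoisocaproate, a step that is catalyzed by a branched-chain aminotransferase in the cytosol (*BCAT1*) or in the mitochondria (*BCAT2*). The branched-chain ketoacid dehydrogenase complex then removes a carboxyl group, in the step that commits the carbon skeleton to oxidation, and a kinase (*BCKDK*) switches this complex off. Isovaleryl-CoA dehydrogenase (*IVD*) and the biotin enzyme methylcrotonyl-CoA carboxylase (*MCCC1* and *MCCC2*) follow, and after hydration the product is HMG-CoA. HMB itself comes from ketoisocaproate by a side reaction, and muscle is known as a main site of the first step of the pathway.

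The probes are oligonucleotides of 60 bases, printed here 5′ to 3′ as the files give them. The probe at the end of the *BCAT1* coding sequence and the only *BCAT2* probe are shown since these 2 genes gave ratios of opposite sign, and the capitals mark the longest run of bases that both share.
*BCAT1* probe at the end of the coding sequence: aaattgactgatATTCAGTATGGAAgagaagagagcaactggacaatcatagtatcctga
*BCAT2* probe: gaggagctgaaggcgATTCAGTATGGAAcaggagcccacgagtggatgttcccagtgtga
*BCAT1* brightest probe: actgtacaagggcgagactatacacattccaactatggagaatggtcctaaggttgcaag
The shared run was 13 bases long, and without gaps 34 of 57 aligned bases were identical (59.6%). The brightest *BCAT1* probe lies 13 bases upstream of the other and shared at most 6 bases in a row with the *BCAT2* probe. Across all 12 probes, the longest run shared with a probe of another name was 14 bases.

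The *BCKDHB* probes are shown since they overlap and are not independent measurements, and here the capitals mark the 11 bases they share.
*BCKDHB* upstream probe: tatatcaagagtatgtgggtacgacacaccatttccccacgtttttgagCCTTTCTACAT
*BCKDHB* downstream probe: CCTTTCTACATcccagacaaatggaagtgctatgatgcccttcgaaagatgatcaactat
The probes of *IVD* and *MCCC2* are shown since the genes stand for the dehydrogenase and the carboxylase step. In these sequences nothing is marked.
*IVD* probe: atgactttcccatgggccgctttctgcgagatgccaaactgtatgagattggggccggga
*MCCC2* probe: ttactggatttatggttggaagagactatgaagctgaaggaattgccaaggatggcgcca

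Each array carried both RNAs, with the HMB-treated group in Cy5 and the control in Cy3, and all 4 arrays lay on 1 slide. No dye swap was made, so an effect of treatment and an effect of dye cannot be told apart in any ratio below. Values are the log2 of HMB over control from the scanner's normalized signals, given as mean ± SD over n = 4 arrays. A probe was tested with limma if all 4 arrays had a channel of it well above background, and a call needed both a p of at most 0.05 after Benjamini-Hochberg adjustment and a fold change (FC) of at least 1.3. Of the non-control spots, between 57.6% and 60.6% were well above background in Cy3 and between 55.2% and 61.8% in Cy5, and 0 spots were saturated. Across the 24670 tested probes 28.6% were called, 12.1% as higher and 16.4% as lower, and the median log2 ratio was -0.07. When the arrays were centered on their spike-in RNA instead, this median was -0.67, so the direction of small ratios is relative to the bulk of the probes.

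Of the 9 genes, 4 were called (background: 28.6% of tested probes). *BCAT1*, *IVD* and *MCCC1* were lower in the HMB-treated group (3 genes, background 16.4%), and *BCAT2* was higher (1 gene, background 12.1%), although its ratio turned to -0.17 under spike-in centering. The remaining 5 genes, *BCKDHA*, *BCKDHB*, *DBT*, *BCKDK* and *MCCC2*, were not called. By probe, 11 of 12 were tested and 5 were called. With limma's treat, which asks for an FC above 1.3, *BCAT1* was the only one of the 9 genes called (background 11.4%). The median log2 ratio over the 9 genes was -0.13, against -0.07 over all tested probes.

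**Figure D1:**
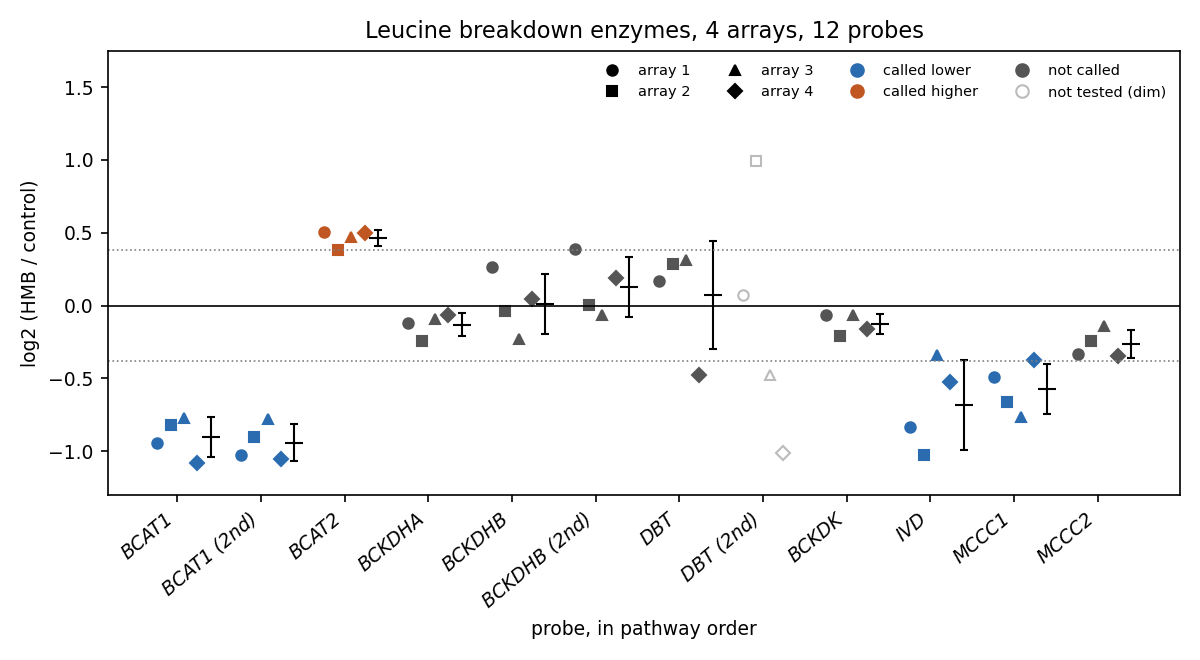
The log2 ratio of HMB over control (vertical axis) for each of the 12 probes in pathway order, with 1 symbol per array, the mean ± SD of tested probes beside them and dotted lines at an FC of 1.3. All 4 arrays lie below 0 for both *BCAT1* probes, *BCKDHA*, *BCKDK*, *IVD*, *MCCC1* and *MCCC2* and above 0 for *BCAT2*, while *BCKDHB* and *DBT* lie on both sides of 0.

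The first step showed the largest ratio of the pathway. *BCAT1*, the cytosolic aminotransferase, is known from brain and from proliferating cells. At its brightest probe (chr6:50785287-50787210 on EquCab1, minus strand, a span of 1924 bases that crosses an intron) the normalized control signals were 739, 681, 853 and 738 on arrays 1 to 4. The HMB-treated signals on the same arrays were 384, 386, 498 and 349. Every HMB-treated signal was below every control signal. The log2 ratios were -0.94, -0.82, -0.77 and -1.08, with a mean of -0.90 ± 0.14 (SD, n = 4) and a 95% confidence interval from -1.08 to -0.73. *BCAT1* thus fell to 53.4% of control (limma adjusted p = 0.000255), and its absolute ratio was larger than that of 91.9% of the tested probes. In a culture measured as a whole, fewer cells that use a gene and less of its RNA per cell cannot be told apart.

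The second *BCAT1* probe (chr6:50776751-50785273, minus strand), the one printed above that ends in a TGA triplet, gave ratios of -1.03, -0.90, -0.78 and -1.05. Its mean was -0.94 ± 0.13 (SD, n = 4; limma adjusted p = 0.000197). Its control signals were between 399 and 488 and its HMB-treated signals between 202 and 284, with no overlap. The probes lie in the same transcript, so they are 2 readings of 1 gene and not replicates.

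*BCAT2*, the mitochondrial aminotransferase and the form that skeletal muscle is known for, had 1 probe (chrUn:233943412-233944535, minus strand). Its control signals were 196, 187, 217 and 168, and its HMB-treated signals were 278, 243, 302 and 237. Every HMB-treated signal was above every control signal. The log2 ratios of 0.50, 0.38, 0.47 and 0.50 averaged 0.46 ± 0.057 (SD, n = 4), with a 95% confidence interval from 0.32 to 0.61. *BCAT2* rose by an FC of 1.38 (limma adjusted p = 0.00163). This was the smallest spread between arrays among the 9 genes. Under spike-in centering its ratio was -0.17, but it stood 0.50 above the median of all tested probes there and 0.53 above it with the scanner's ratios. With normexp background correction and loess the FC was under 1.3 at a log2 ratio of 0.28.

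Within an array, the log2 ratio of *BCAT1* minus that of *BCAT2* was -1.45, -1.20, -1.25 and -1.58. The mean was -1.37 ± 0.18 (SD, n = 4), 2.58-fold on the linear scale, and it had the same sign on 4 of 4 arrays. The exact two-sided sign-flip permutation test gave p = 0.125, which is the smallest that 4 arrays allow (adjusted p = 0.25 over the 4 pairs compared). An unequal change of the genes and an unequal dye effect on their probes cannot be told apart. The difference does not set the level of one against the other, since the brightness of different probes cannot be compared.

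**Figure D2:**
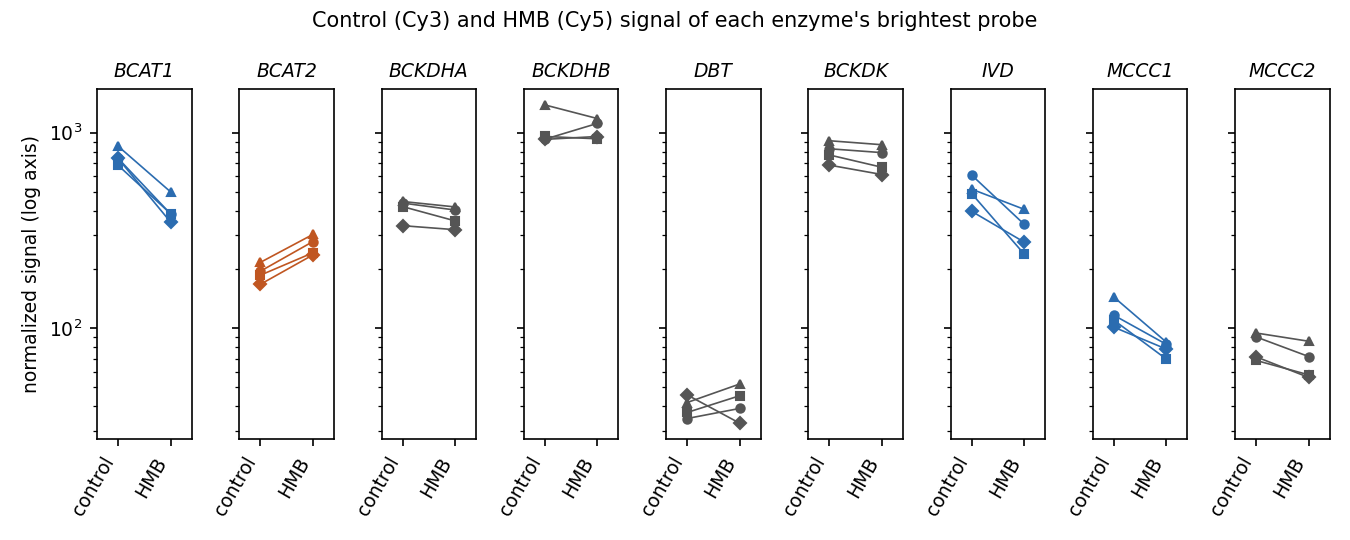
Normalized signal (log axis, arbitrary units) of the brightest probe of each gene in the control (Cy3) and the HMB-treated group (Cy5), with a line per array. The lines fall on all 4 arrays for *BCAT1*, *BCKDHA*, *BCKDK*, *IVD*, *MCCC1* and *MCCC2* and rise on all 4 for *BCAT2*. Those of *BCKDHB* go both ways, and those of *DBT* rise on 3 arrays and fall on array 4. Heights may be compared within a panel only.

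The decarboxylase and transacylase genes of the ketoacid dehydrogenase complex were not called. *BCKDHA* and *BCKDHB* encode the alpha and beta parts of its decarboxylase. The probe of *BCKDHA* (chr10:11943936-11943995, plus strand) gave log2 ratios of -0.12, -0.24, -0.09 and -0.07, all below 0. The mean was -0.13 ± 0.078 (SD, n = 4), with a 95% confidence interval from -0.28 to 0.02 and a limma adjusted p of 0.135. Control signals between 335 and 445 overlapped with HMB-treated signals between 319 and 417.

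*BCKDHB* had no common direction. Its brighter, downstream probe (chr10:29236463-29236522, plus strand) gave log2 ratios of 0.27, -0.04, -0.23 and 0.05, which average 0.01 ± 0.21 (SD, n = 4; limma adjusted p = 0.928). The interval from -0.21 to 0.23 leaves room for a change of that size in either direction. The upstream probe (chr10:29236414-29236473) gave 0.39, 0.01, -0.07 and 0.19 with a mean of 0.13 ± 0.21 (SD, n = 4; limma adjusted p = 0.278). Both probes were highest on array 1 and lowest on array 3. The log2 ratio of *BCKDHA* minus that of *BCKDHB* was -0.14 ± 0.22 (SD, n = 4), below 0 on 3 of 4 arrays (exact sign-flip permutation p = 0.375, adjusted p = 0.375).

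*DBT* encodes the transacylase core of the complex, and its spots were dim. Its control signals were 34.7, 37.3, 41.9 and 45.8, and its HMB-treated signals were 39.1, 45.3, 52.1 and 32.9. Before background subtraction the HMB-treated spot was only 1.70 to 2.20 times as bright as its local background. The log2 ratios of the probe (chr5:38885576-38885635, plus strand) were 0.17, 0.28, 0.31 and -0.48, so array 4 opposed the other arrays. The mean was 0.07 ± 0.37 (SD, n = 4), with a 95% confidence interval from -0.27 to 0.41 (limma adjusted p = 0.697), and without array 4 it was 0.26. The second *DBT* probe (chr5:38885636-38885695), directly downstream of the first, was not well above background in either channel on any array and was not tested.

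*BCKDK* encodes the kinase that inactivates the complex. Its probe (chr13:6077475-6077893, minus strand) gave log2 ratios of -0.07, -0.21, -0.07 and -0.16, with a mean of -0.13 ± 0.071 (SD, n = 4). The 95% confidence interval ran from -0.28 to 0.03 (limma adjusted p = 0.143). *PPM1K*, the phosphatase that reactivates the complex, had ratios of -0.24, 0.07, 0.34 and -0.14 and a mean of 0.01 ± 0.26 (SD, n = 4; limma adjusted p = 0.952). The difference of kinase minus phosphatase was -0.13 ± 0.26 (SD, n = 4; exact sign-flip permutation p = 0.375, adjusted p = 0.375). The direction of *BCKDHA* and *BCKDK* turned under centering on the array median (0.02 and 0.01), and that of *BCKDHB* and *PPM1K* under spike-in centering (-0.61 and -0.59).

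*DLD*, the dihydrolipoyl dehydrogenase that this complex shares with pyruvate and oxoglutarate dehydrogenase, was called lower at both of its probes. The brighter probe gave -0.41, -0.52, -0.58 and -0.50, with a mean of -0.50 ± 0.068 (SD, n = 4; limma adjusted p = 0.00128). With centering on the array median the ratio was -0.30, under an FC of 1.3. With the scanner's ratios, the shared subunit was thus the only part of the complex, among the 4 measured, that was called. Under spike-in centering *BCKDHA*, *BCKDHB* and *DBT* were called lower too, at log2 ratios of -0.72, -0.61 and -0.76.

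*IVD* oxidizes isovaleryl-CoA in the mitochondria. At its probe (chr1:145381698-145381757, minus strand) the control signals were 607, 488, 514 and 396, and the HMB-treated signals were 340, 240, 406 and 276. The groups overlapped slightly, since the HMB-treated signal of array 3 was above the control signal of array 4, but within each array the HMB-treated signal was lower. The log2 ratios were -0.83, -1.03, -0.34 and -0.52, with a mean of -0.68 ± 0.31 (SD, n = 4) and a 95% confidence interval from -0.97 to -0.39. *IVD* fell to 62.4% of control (limma adjusted p = 0.00515). The spread was the second largest of the 9 genes, and the methods' t-test did not call it (adjusted p = 0.061).

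*IVD* hands its electrons to the electron transfer flavoprotein. *ETFA*, the alpha subunit of this carrier, gave -0.41, -0.28, -0.86 and -0.69 and fell to a log2 ratio of -0.56 ± 0.26 (SD, n = 4; adjusted p = 0.00682 in limma). *ETFB*, the beta subunit, had a log2 ratio of 0.07 (limma adjusted p = 0.508). *ETFDH*, which passes the electrons on to ubiquinone, had a log2 ratio of -0.28 and an adjusted p of 0.0249 (limma), but its FC of 1.22 was under the threshold. The call of *ETFA* was lost with normexp (-0.08), without background correction (-0.22), without the filter on dim probes and with the methods' t-test.

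The carboxylase was lower in its alpha subunit. *MCCC1* encodes the subunit that carries biotin. At its probe (chr19:17580021-17580080, minus strand) the control signals were 117, 110, 144 and 101, and the HMB-treated signals were 82.9, 69.7, 85.0 and 78.4, with no overlap between the groups. The log2 ratios were -0.49, -0.66, -0.76 and -0.37, with a mean of -0.57 ± 0.17 (SD, n = 4) and a 95% confidence interval from -0.77 to -0.37. *MCCC1* fell to 67.2% of control (limma adjusted p = 0.00244). Before background subtraction its HMB-treated spot was 2.56 to 3.14 times as bright as the local background, and the ratio was -0.19 with normexp and -0.27 without background correction, both under an FC of 1.3.

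*MCCC2* encodes the beta subunit. Its control signals were 90.5, 68.7, 94.8 and 71.6 and its HMB-treated signals 71.9, 58.0, 86.0 and 56.2, which overlap between the groups. The log2 ratios at its probe (chr14:91607961-91610636, minus strand, across an intron) were -0.33, -0.24, -0.14 and -0.35, with a mean of -0.27 ± 0.096 (SD, n = 4). The limma adjusted p was 0.018 and the 95% confidence interval from -0.43 to -0.11 lay below 0, but the FC of 1.20 was under the threshold and the gene was not called. *MCCC1* minus *MCCC2* was -0.31 ± 0.27 (SD, n = 4) on the log2 scale and below 0 on 4 of 4 arrays (exact sign-flip permutation p = 0.125, the smallest possible, and adjusted p = 0.25).

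The list of other leucine pathway genes held 11 genes, of which 9 were tested, 0 were higher and 2 were lower, the *DLD* and *ETFA* given above (background 12.1% and 16.4%). Its median log2 ratio was -0.24. *AUH*, which hydrates methylglutaconyl-CoA to HMG-CoA, had a log2 ratio of -0.24 (limma adjusted p = 0.0651). *HPD*, the dioxygenase known to make HMB from ketoisocaproate in liver, was not well above background in either channel on any array. *SLC25A44*, the mitochondrial carrier of branched-chain amino acids, was above background on 1 array in each channel and was not tested either.

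**Figure D3:**
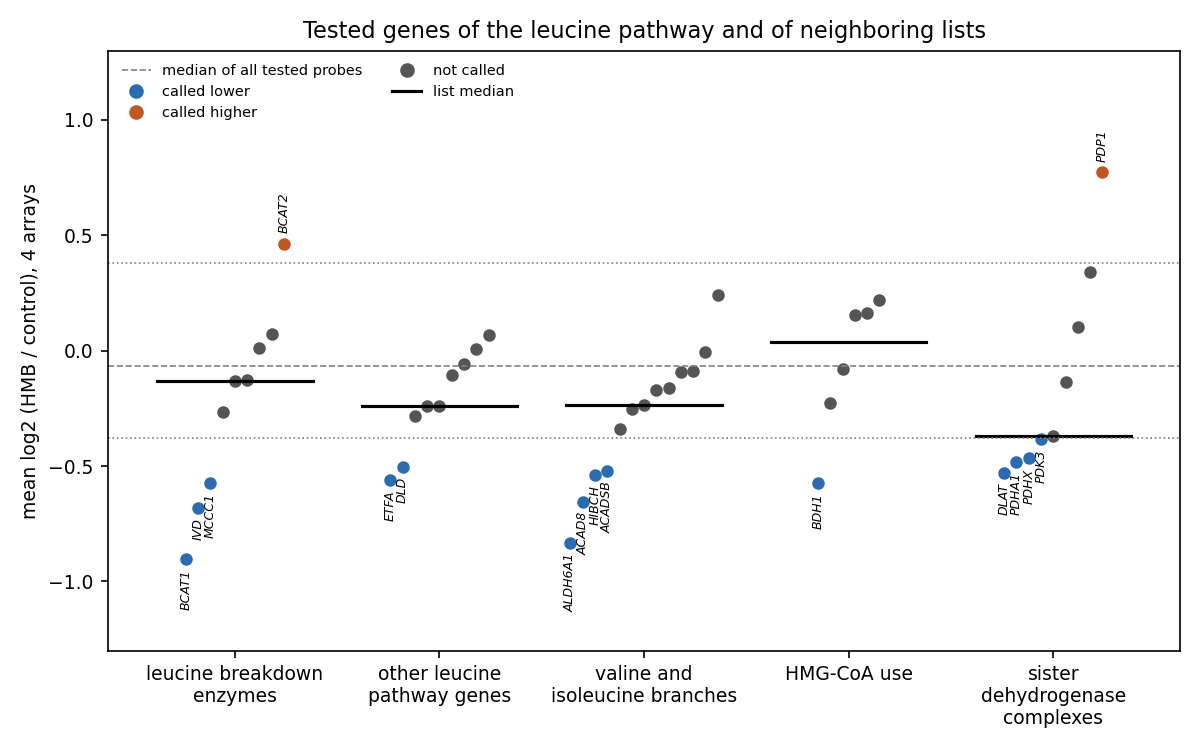
Mean log2 ratio of HMB over control over 4 arrays (vertical axis) for every tested gene of the leucine breakdown enzymes and of 4 other lists, with called genes named, list medians as black bars, dotted lines at an FC of 1.3 and the median of all tested probes dashed. The medians of the 5 lists run from -0.37 to 0.04, and *BCAT2* and *PDP1* are the only genes called higher. *ACAD8* and *PDP1* are drawn at their measured ratios. The HMB-treated signal of *ACAD8* was not well above background, and the control signal of *PDP1* was so on only 2 of 4 arrays.

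Valine and isoleucine share the first steps with leucine and then part from it. Of the 14 genes listed for their branches, 13 were tested, 0 were higher and 4 were lower (background 16.4%), with a median log2 ratio of -0.24. *ALDH6A1*, the methylmalonate semialdehyde dehydrogenase of the valine branch, gave -0.58, -1.09, -1.07 and -0.59 and fell to a log2 ratio of -0.83 ± 0.28 (SD, n = 4; adjusted p = 0.00191 in limma). *ACAD8*, the isobutyryl-CoA dehydrogenase and counterpart of *IVD*, was well above background on 4 arrays in the control and on 0 in the HMB-treated group, so its change has only a bound. With the scanner's signals it was at least 1.46-fold lower in the HMB-treated group. For this, the HMB-treated level of each array was the higher of its own signal and the lowest signal well above background. The limma adjusted p of 0.00101 belongs to the measured log2 ratio of -0.65, and the bound itself was not tested. Its probe entered the test through the control signal alone. Such a bound is open to dye bias. *HIBCH*, which frees hydroxyisobutyrate from its CoA ester, fell to a log2 ratio of -0.54 ± 0.22 (SD, n = 4; adjusted p = 0.00507 in limma), with its HMB-treated signal well above background on 3 of 4 arrays. *ACADSB*, the dehydrogenase of the isoleucine branch, was the fourth at -0.52 ± 0.18 (SD, n = 4) and is named although the rule for named genes stops at 3. The call of *ACADSB* was lost with centering on the array median (-0.37) and with treat. With no background correction before loess, *ACAD8* and *HIBCH* were at -0.12 and -0.16 and were not called. With normexp and loess both were again not called, and neither was *ALDH6A1* at -0.26.

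Over the 4 arrays, *ACAD8*, *ALDH6A1* and *HIBCH* were the genes whose ratios lay closest to those of *BCAT1* among the 37 tested genes of the 4 other lists. The root mean square difference of the log2 ratios was 0.30 for *ACAD8*, 0.36 for *ALDH6A1* and 0.38 for *HIBCH*. This measure grows with the distance between the means, so a small value does not show a shared pattern over arrays. *ALDH6A1* was lowest on arrays 2 and 3, where *BCAT1* was highest. The ranking is a description over 4 arrays, which share a slide and a control label. The values of *ACAD8* and *HIBCH* rest on HMB-treated signals well above background on 0 and 3 arrays.

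Among genes that make or use HMG-CoA and ketone bodies, 6 of 8 were tested, 0 were higher and 1 was lower (background 12.1% and 16.4%), with a median log2 ratio of 0.04. *BDH1*, the hydroxybutyrate dehydrogenase, fell to a log2 ratio of -0.57 ± 0.21 (SD, n = 4; adjusted p = 0.0037 in limma), but with normexp it was at -0.28 and was not called. *HMGCS1*, the cytosolic HMG-CoA synthase, was not tested, being well above background on 1 array in Cy5 and on 0 arrays in Cy3.

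The pyruvate and oxoglutarate dehydrogenase complexes are built like the ketoacid complex and were listed for comparison. Of 12 genes, 9 were tested, 1 was higher and 4 were lower (background 12.1% and 16.4%), with a median log2 ratio of -0.37. *DLAT*, the transacetylase core of the pyruvate complex and counterpart of *DBT*, fell to a log2 ratio of -0.53 ± 0.054 (SD, n = 4; adjusted p = 0.000936 in limma). *PDHA1*, the counterpart of *BCKDHA*, fell to a log2 ratio of -0.48 ± 0.094, and *PDHX*, the binding protein of the core, to -0.47 ± 0.084 (SD, n = 4 for both). *PDHB*, the counterpart of *BCKDHB* and also named outside the rule, was at 0.10 and was not called (limma adjusted p = 0.194). Centered on the array median, *PDHA1* and *PDHX* were at -0.27 and -0.31 and were not called. *PDK3*, a kinase of this complex, was the fourth at -0.38 ± 0.23 (SD, n = 4), named outside the rule, and its call was lost in 10 of 19 alternatives, among them normexp (-0.16), no background correction (-0.18), GC correction (-0.32), leaving out array 2 (-0.28) and leaving out array 3 (-0.38). *PDP1*, the phosphatase that switches the pyruvate complex on, had measured log2 ratios of 0.52, 0.91, 0.98 and 0.69. Their mean was 0.77 ± 0.21 (SD, n = 4; adjusted p = 0.00112 in limma), and it was called higher at both of its probes. Its control signal was well above background on only 2 of 4 arrays. This probe therefore entered the test through the HMB-treated signal alone, and the size of its rise is uncertain. With both channels required to be well above background, 0 genes of this list were called higher. *PDP1* was at -0.06 under spike-in centering and at 0.23, not called, with normexp. Whether these genes differ from those of the ketoacid complex was not tested.

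Markers of the cells in culture differed between the groups, but not all markers of a cell type went the same way. Of 8 myogenic markers, 5 had a probe, all 5 were tested and 3 were called lower (background 16.4%). These were *MYF5* (log2 ratio -1.49), *DES* (-1.22) and *NCAM1* (-1.13). The summed signal of the 5 was 23110 to 29010 in the control and 9364 to 14870 in the HMB-treated group, most of it from *DES*. *MYOD1* and *MYOG*, which define myogenic cells, were above background and were not called. *MYOD1* went the other way at a log2 ratio of 0.32 (limma adjusted p = 0.0441), but its FC of 1.25 was under the threshold. *MYOG* was at 0.03. For *PAX7*, the marker of satellite cells, no probe of that name was found. Of 6 fibroblast markers, 5 had a probe, 5 were tested and 4 were called higher (background 12.1%), *PDGFRA* (1.49), *DCN* (0.77), *THY1* (0.76) and *LUM* (0.42), while *COL1A2* was at -0.23. Under spike-in centering *LUM* turned to -0.09 and *THY1*, at 0.17, was not called. The summed signal of the 5 was 283600 to 344900 in the control and 274000 to 426700 in the HMB-treated group, most of it from *COL1A2*. Without *COL1A2* the sum of the other 4 was 58070 to 71910 in the control and 91670 to 132800 in the HMB-treated group, with no overlap. Most of this sum came from *DCN*. It leaves out the only tested fibroblast marker with a mean ratio below 0, so it does not stand for the whole list. Of the leukocyte markers, *CD68* was called higher (0.88, but 0.20 and not called under spike-in centering) and *CD14* was not called, and *CD3E* and *ITGAM* were never above background. The summed leukocyte signal was 3687 to 4434 in the control and 4156 to 6203 in the HMB-treated group, most of it from *CD14*. None of the 5 endothelial and 3 adipocyte markers with a probe was tested, and *PECAM1*, *CDH5*, *KDR*, *VWF* and *FABP4* were never above background. The part of these markers in the ratios of the leucine enzymes was not tested.

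**Figure D4:**
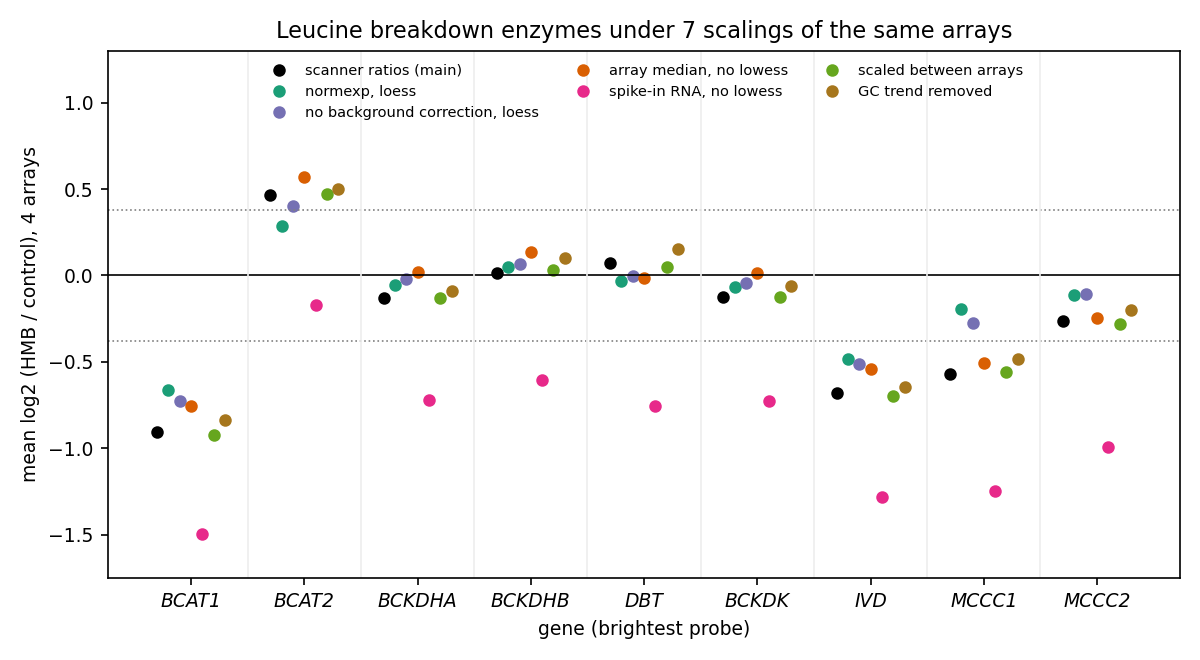
Mean log2 ratio of HMB over control over 4 arrays (vertical axis) of the brightest probe of each of the 9 genes under 7 ways of correcting and centering the same arrays, with dotted lines at an FC of 1.3. Spike-in centering moves all 9 genes down, *BCAT2* to -0.17, while *BCAT1* stays the lowest of the 9 in each of the 7.

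Spike-in centering was done without lowess, so both choices changed at once. Relative to the median of all tested probes, *BCAT1* was at -0.84 with the scanner's ratios and -0.82 under spike-in centering. *IVD* was at -0.61 under both, and *MCCC1* was at -0.50 and -0.57. *BCKDHA*, *BCKDHB* and *BCKDK* were within 0.08 of that median under both. *MCCC2* was 0.20 below it with the scanner's ratios and 0.32 below it under spike-in centering. *DBT* was 0.14 above it with the scanner's ratios and at -0.08 under spike-in centering. Centering on the array median, also without lowess, gave -0.08 for *DBT* and -0.32 for *MCCC2*.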

How the data were processed

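RNA of 4 equine satellite cell comparisons was measured on 2-colour Agilent horse arrays annotated on EquCab1. The deposited intensity values are spot brightnesses before and after background subtraction and after the linear and lowess normalization of Feature Extraction 10.10.1.1. The deposited log10 ratios are normalized Cy5 over Cy3, and the authors' table holds the same log10 values. Well-above-background and outlier marks came from the same files. Here the ratios were changed to log2, spots of a probe were averaged, and marked spots (13 to 35 an array) were left out. A probe needed a ratio on at least 3 arrays. Ratios were tested against 0 in R 4.3.3 with limma 3.58.1 (intercept, eBayes) and corrected over 24670 probes. A gene is given by its brightest tested probe. The t-test and the thresholds follow the study's methods. The pairs of genes were compared by an exact permutation test over arrays.

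The genes named are the 9 enzymes, the called genes of each other list up to the 3 largest rises and falls, the genes of the pairs, and the 3 most like *BCAT1*. *MMUT* was matched by its older symbol. A few genes of the other lists are counted but not reported singly here. The genes and lists were chosen with earlier results of these data known. Fits were tested on simulated data. Alternatives covered the background correction, the normalization, the filter, the test, the probes of a gene, the source of the ratios and each replicate left out. The sequences are those of the scanner files. Precision is limited by having 4 arrays.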

Additional observations from a re-analysis of the deposited data

How the results depend on the processing

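*BCAT1* kept its direction and its call in all 19 alternatives, with log2 ratios from -1.50 to -0.66. The differences of the 4 pairs kept their sign in all of them. Alternatives that changed only the test, the filter or the source of the ratios left these differences and the *BCAT1* ratio at their values, so they are no check on the sign. The authors' table holds the same ratios as the scanner files, so it is no check on the *BCAT1* call either. Spike-in centering and centering on the array median gave equal differences, since a constant per array cancels. Centering on the spike-in RNA without lowess moved the median of all tested probes from -0.07 to -0.67, and 82.2% of the tested probes were then called. Of the 9 enzymes 8 were called, 0 higher and 8 lower, by 10 probes, with a median of -0.76. *BCAT2* turned to -0.17, *BCKDHB* to -0.61, *DBT* to -0.76, *PPM1K* to -0.59 and *PDP1* to -0.058. There 9 other leucine pathway genes, 12 of the valine and isoleucine branches, 5 of HMG-CoA use and 7 of the sister complexes were lower, and 0 of the last were higher. Centering on the array median without lowess gave *BCKDHA* 0.020, *BCKDK* 0.014 and *DBT* -0.015, a median of -0.015 over the 9 enzymes, 1 lower gene among the other leucine pathway genes, 1 higher in the branches, and 2 higher and 1 lower in the sister complexes. Calls in that setting were higher in 63.2%, against 42.5% with the scanner's ratios.

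With normexp and loess, 2 of the 9 enzymes (3 probes) were called, 0 of them higher, and *DBT* was at -0.034. Lower were 1 other leucine pathway gene, 1 branch gene, 0 of HMG-CoA use and 2 of the sister complexes (0 higher). Without background correction *DBT* was at -0.0026, and the same lists had 1, 2, 0 and 2 lower genes. With treat, 1 enzyme (2 probes) was called, 0 higher and 1 lower, and the lists had 0, 2, 0 and 0 lower genes. Across all probes normexp called 3539, no correction 4440, and treat 2822, of which 55.0%, 60.1% and 54.6% were higher, and GC correction gave 55.7%. The other leucine pathway genes had 1 lower gene without the filter on dim probes and 1 with the methods' t-test. The sister complexes had 2 higher genes after GC correction and 0 with both channels above background. Scaling between arrays put *PPM1K* at -0.020.

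With each replicate left out in turn, 4 enzymes (5 probes) were called each time. *BCKDHB* ranged from -0.074 to 0.092, *DBT* from -0.0085 to 0.26 and *PPM1K* from -0.10 to 0.093. Genes called higher in the sister complexes numbered 1 to 2, with 2 without replicate 2. The causes of these shifts were not tested. The slide could not be a block, since all arrays share it. No pairing beyond that within an array was possible because the labels hold 1 group, and each ratio already pairs both RNAs of an array. Dim probes such as those of *DBT*, *MCCC1* and *MCCC2* limit what these arrays can show.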
